A study of Rattus norvegicus with 12 samples.

Results

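The comparison described here is that of female rats given soy protein isolate together with estradiol (SPI+E2) with rats fed the casein control diet (CAS). It rests on 6 of the 12 arrays of the series, 3 pools of SPI+E2 and 3 pools of CAS, chosen by their titles, and on 31042 of 31099 probe sets, 57 control probe sets being left out. Of these, 20826 carried a single gene symbol and gave values for 14217 genes. The SPI+E2 rats were young female Sprague-Dawley rats on a diet with SPI as the protein source, with 17 beta-estradiol delivered at 10 µg/kg/d by a subcutaneous osmotic pump, and the CAS rats were of the same strain, sex and age on a diet with casein as the protein source. The labels give treatment between postnatal days 21 and 34, and the methods begin it 1 day earlier. Both groups kept their ovaries, so the hormone of the SPI+E2 rats came on top of whatever the animals made themselves. Bone was taken after the marrow had been aspirated, and every array held RNA pooled from 2 to 3 rats of 1 group. The other 6 arrays, 3 of the SPI diet alone and 3 of E2 on the casein diet, entered the fit and are used below only to show where SPI+E2 differed from each treatment alone.

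Soy protein isolate carries isoflavones, plant compounds that bind estrogen receptors, and estradiol is the main ovarian estrogen. Before puberty, long bones lengthen at the growth plate, where cartilage cells divide, enlarge, lay down collagens II, IX, X and XI and are replaced by bone. Osteoblasts build that bone and become osteocytes, osteoclasts resorb it, and sympathetic and sensory nerve fibres run through the periosteum and the marrow. A tibia sample can therefore hold RNA of cartilage, bone, nerve, muscle, fat, tendon and whatever blood-forming marrow the aspiration left behind.

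The deposited values are log2 values centred on 0 for each probe set, the median over the 12 arrays, and they lay between -2.2 and 3.466. They show how far one pool stands from another but not how abundant an RNA is, so the labelled tissue could be checked only by relative values and no gene's level was compared with another gene's. In a limma fit over the 4 groups, 824 of 14217 genes (5.8%) were higher and 1004 (7.06%) lower in SPI+E2 than in CAS at a Benjamini-Hochberg adjusted p under 0.05, and 2631 of 31042 probe sets (8.48%) passed in either direction. The shares of 5.8% higher and 7.06% lower are those to set beside each gene list count below. The called genes moved little. Their median absolute difference was 0.252 log2 units, against 0.0836 over all genes and a median standard error of 0.0619, and 70 of them (39 higher, 31 lower) reached 1.5-fold. Pools of the 2 groups did not overlap for 9473 probe sets (30.5%), and for 1821 of the 1828 called genes. At 1.5-fold without a test there were 147 probe sets (0.474%), 86 higher and 61 lower. After quantile normalization the split turned to 85 higher and 108 lower, and the called genes went to 860 higher and 1452 lower. The p-values measure the spread between pools. In a whole bone sample, fewer cells of a type and less RNA per cell cannot be told apart.

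**Figure D1:**
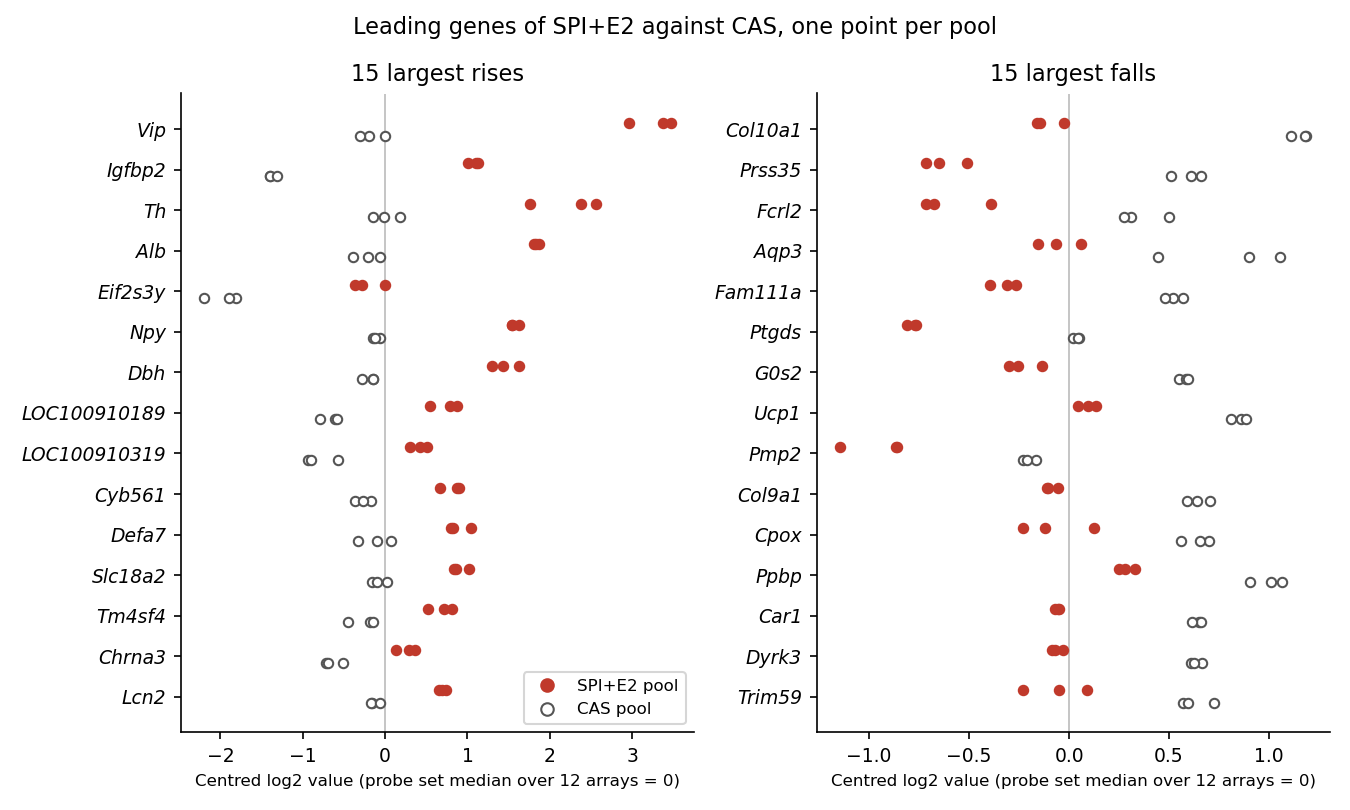
Centred log2 values of the 15 genes that rose most and the 15 that fell most, with 1 filled point per SPI+E2 pool and 1 open point per CAS pool; the x axis is in log2 units and 0 is the median of the 12 arrays. That the 3 SPI+E2 pools lie wholly on one side of the 3 CAS pools was a condition for choosing these 30 genes. The gap is widest at Vip, and narrowest among the falls at Aqp3 and Cpox.

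The 15 largest rises and 15 largest falls were taken from called genes whose pools did not overlap. Lack of overlap in these leading genes is therefore a condition of their choice and not a further result. Among the 15 largest rises were Vip, Th, Npy, Dbh, Cyb561, Slc18a2 and Chrna3, genes of autonomic nerve. Vip, which encodes vasoactive intestinal peptide, a vasodilator transmitter of autonomic fibres, rose by 3.44 log2 units (10.8-fold), and the genes of noradrenaline synthesis, storage and co-transmission rose with it. Of 14 measured genes of catecholamine and sympathetic function 7 were higher and 0 lower (median 0.30, against 0.0048 over all genes), and the count was between 6 and 8 without any one of the 6 pools.

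The promoter of Vip is shown because Vip rose most of all genes, and those of Th and Slc18a2 because they were the 2 among the leading rises that held the element searched for. Npy, Dbh and Cyb561, which rose more than Slc18a2, and Chrna3 did not hold it and are not shown. Each window runs from 250 bases before to 50 bases after the start of the gene in RefSeq annotation of assembly GRCr8, on the strand of the gene. Capitals mark TGACGTCA, the palindromic cAMP response element, through which neurons couple transmitter genes to cyclic AMP. The Vip window is chr1:44470230-44470529 on the plus strand, the Th window chr1:207508169-207508468 on the minus strand and the Slc18a2 window chr1:268399771-268400070 on the plus strand.
Vip: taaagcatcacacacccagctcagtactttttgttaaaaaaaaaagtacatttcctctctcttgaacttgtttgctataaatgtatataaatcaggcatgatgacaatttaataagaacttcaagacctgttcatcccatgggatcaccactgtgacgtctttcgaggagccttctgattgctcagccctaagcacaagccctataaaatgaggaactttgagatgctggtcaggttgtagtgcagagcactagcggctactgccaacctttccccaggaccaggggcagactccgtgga
Th: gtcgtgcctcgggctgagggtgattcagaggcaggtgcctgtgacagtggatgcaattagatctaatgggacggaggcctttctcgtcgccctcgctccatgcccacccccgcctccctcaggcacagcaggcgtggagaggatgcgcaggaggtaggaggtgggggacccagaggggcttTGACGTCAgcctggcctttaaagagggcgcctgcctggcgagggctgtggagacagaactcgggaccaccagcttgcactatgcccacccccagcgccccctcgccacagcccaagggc
Slc18a2: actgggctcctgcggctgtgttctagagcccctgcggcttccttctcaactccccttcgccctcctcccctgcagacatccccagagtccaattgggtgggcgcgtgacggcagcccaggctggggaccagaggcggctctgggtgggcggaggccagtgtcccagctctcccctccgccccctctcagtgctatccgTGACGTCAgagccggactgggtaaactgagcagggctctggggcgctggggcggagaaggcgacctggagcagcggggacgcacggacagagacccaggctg
The first capital lies 69 bases before the start in Th and 52 bases before it in Slc18a2. Searched on both strands, the element was present in 612 of 33469 promoters (1.83%), in 2 of the 14 matched promoters of the 15 leading rises and in 0 of the 10 matched promoters of the 15 leading falls. The consensus estrogen response element, a pair of inverted half-sites around 3 bases of any kind, was likewise searched on both strands and was present in 9 promoters of all (0.0269%) and in 0 of these 24. A match is a string of letters in this window, and no match says nothing of more distant or altered sites.

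Vip gave 3.37, 2.96 and 3.47 in the SPI+E2 pools, against -0.20, -0.0069 and -0.30 in the CAS pools. All 3 SPI+E2 pools stood far above the highest CAS pool, and the pools within a group were close by comparison (SE 0.124, limma adjusted p = 4.78e-08). Relative to each treatment alone, Vip in SPI+E2 was 3.08 above SPI (adjusted p = 5.07e-08) and 3.63 above E2 (adjusted p = 1.27e-08).

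Tyrosine hydroxylase, the rate-limiting enzyme of catecholamine synthesis, is encoded by Th, which gave 2.37, 1.76 and 2.56 in the SPI+E2 pools, against -0.15, -0.0084 and 0.19 in the CAS pools. The SPI+E2 pools were the more scattered, yet the lowest of them lay far above the highest CAS pool (difference 2.22, SE 0.198, 4.67-fold, adjusted p = 4.1e-05). Dbh, whose product turns dopamine into noradrenaline, gave 1.43, 1.63 and 1.29 in the SPI+E2 pools, against -0.28, -0.15 and -0.15 in the CAS pools, without overlap (difference 1.64, SE 0.104, 3.13-fold, adjusted p = 3.38e-06). Cyb561, which encodes the cytochrome that keeps the ascorbate used by that enzyme reduced inside the vesicle, gave 0.87, 0.67 and 0.90 in the SPI+E2 pools, against -0.17, -0.36 and -0.27 in the CAS pools, again without overlap (1.08, SE 0.0718, adjusted p = 5.19e-06). Ddc, the decarboxylase that acts between Th and Dbh, gave 0.47, 0.62 and 0.65 in the SPI+E2 pools, against -0.10, -0.009 and -0.056 in the CAS pools and differed by 0.64 (SE 0.0583, adjusted p = 5.25e-05).

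Slc18a2, the vesicular monoamine transporter, was carried by 3 probe sets that differed by between 0.47 and 1.57 log2 units. Their mean gave 0.83, 1.01 and 0.86 in the SPI+E2 pools, against -0.16, 0.023 and -0.10 in the CAS pools, so that all SPI+E2 pools were high and no CAS pool was (difference 0.98, SE 0.0685, adjusted p = 7.33e-06). Npy, whose peptide is released with noradrenaline, gave 1.54, 1.63 and 1.54 in the SPI+E2 pools, against -0.15, -0.06 and -0.12 in the CAS pools without overlap (1.68, SE 0.0703, 3.21-fold, adjusted p = 1.22e-07). The transcription factor gene Hand2, needed for the noradrenergic fate, was 0.38 higher (SE 0.0807, adjusted p = 0.0101) and Maoa, a monoamine-degrading enzyme, was 0.31 higher (adjusted p = 0.00123). Phox2a, another noradrenergic factor, was 0.47 higher with an adjusted p of 0.0172, and lost the call without SPI+E2 pool 1, SPI+E2 pool 3 or CAS pool 2 (largest adjusted p = 0.0649). The noradrenaline transporter gene Slc6a2 did not pass (0.23, adjusted p = 0.169).

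**Figure D2:**
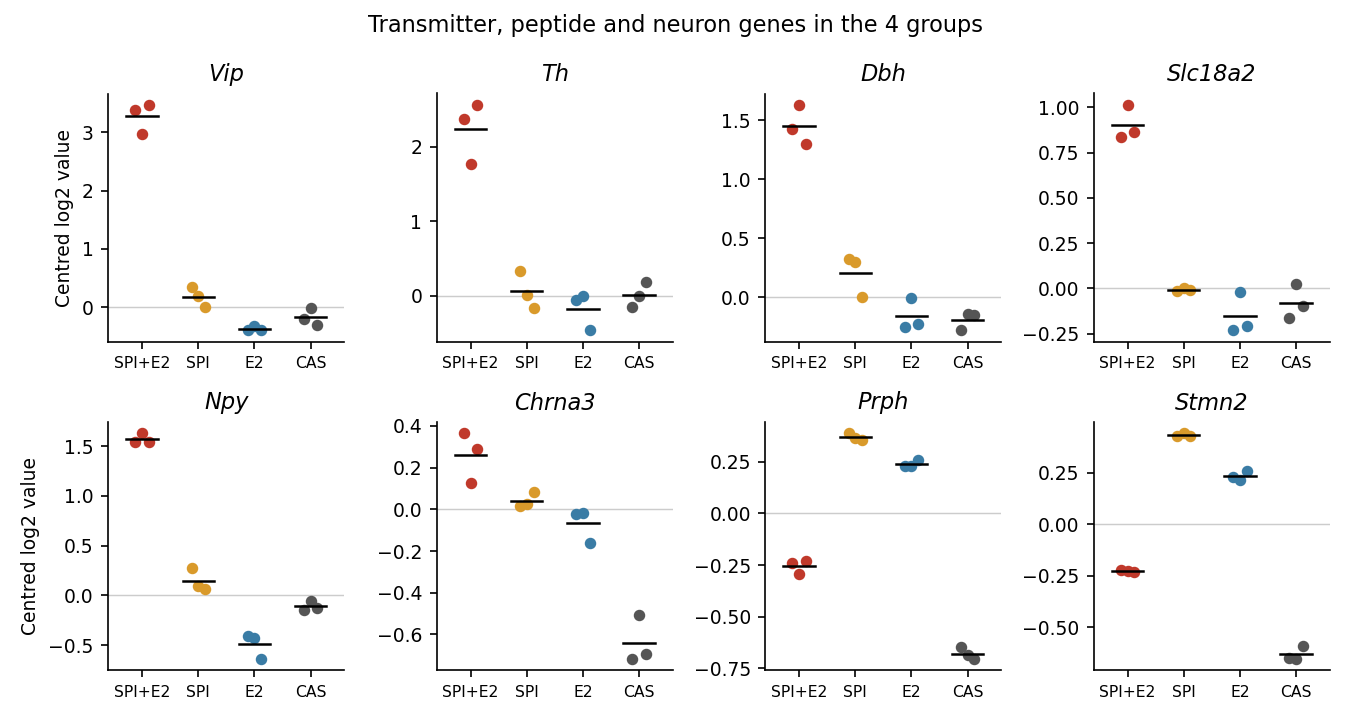
Centred log2 values of 8 genes in SPI+E2, SPI, E2 and CAS bone, with 1 point per pool and a bar at the group mean; the y axes differ between panels. Vip, Th, Dbh, Slc18a2 and Npy stand high in the 3 SPI+E2 pools, whereas Prph and Stmn2 stand between CAS and the single treatments.

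Not every gene of nerve behaved in this manner. Of 23 genes that neurons use in general 15 were higher and 0 lower (median 0.20), with differences no larger than 0.47, in Syt4, a synaptotagmin of vesicle trafficking. After quantile normalization 12 of the 23 were higher and 1 lower (median 0.155). Prph, the intermediate filament of peripheral neurons, gave -0.24, -0.29 and -0.23 in the SPI+E2 pools, against -0.65, -0.69 and -0.70 in the CAS pools, which did not overlap (difference 0.43, SE 0.036, adjusted p = 3.36e-05). Stmn2, a microtubule regulator of growing axons, gave -0.22, -0.22 and -0.23 in the SPI+E2 pools, against -0.65, -0.65 and -0.59 in the CAS pools (difference 0.40, SE 0.0349, adjusted p = 3.74e-05). Of these 23 genes, 9 were called when CAS pool 2 was left out, and 10 when any other pool of the 2 groups was. Set against the single treatments the direction was the other one: 20 of the 23 were lower in SPI+E2 than in SPI and 17 lower than in E2, where 17.1% and 15.5% of all genes passed these tests in either direction.

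Th, Dbh, Slc18a2 and Ddc, by contrast, were higher in SPI+E2 than in SPI (by 2.17, 1.24, 0.91 and 0.62) and than in E2 (by 2.41, 1.61, 1.06 and 0.70), all at an adjusted p of 2.1e-05 or less. Of the 14 catecholamine genes 8 were higher and 1 lower than in SPI, and 9 higher and 1 lower than in E2. The difference between E2's change on the SPI diet and E2's change on casein, the interaction term, passed for 15.8% of all genes. Chrna3, the ganglionic nicotinic receptor subunit, gave 0.36, 0.13 and 0.29 in the SPI+E2 pools, against -0.72, -0.51 and -0.69 in the CAS pools, well apart (0.90, SE 0.0719, adjusted p = 2.1e-05), and it was 0.33 above E2 (adjusted p = 0.00976) and 0.22 above SPI, which did not pass (adjusted p = 0.0593). The other 7 cholinergic genes measured did not pass against CAS.

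Peptides other than Vip and Npy moved less. Among 20 neuropeptide genes 4 were higher and 1 lower (median 0.028). Sst, encoding somatostatin, gave -0.066, -0.0095 and -0.12 in the SPI+E2 pools, against -0.58, -0.69 and -0.46 in the CAS pools and so rose by 0.51 (SE 0.0687, adjusted p = 0.000646), though it was -0.62 relative to SPI (adjusted p = 7.87e-05). Galanin, Gal, was the member called lower (-0.28, adjusted p = 0.0387) and lost the call whichever pool of either group was left out (largest adjusted p = 0.136). Calca, the gene of the sensory peptide CGRP and one of those that the study names, did not pass (-0.063, SE 0.0466, adjusted p = 0.425). Granins, proteins of secretory granules, and the enzymes that process prohormones had 5 of 10 genes higher and 0 lower (median 0.25), led by Chgb (0.42), Scg2 (0.39), Scg5 (0.31) and Scg3 (0.30). Their count fell to 3 without SPI+E2 pool 2, CAS pool 1 or CAS pool 2, and Chgb was lost in each of these cases. After quantile normalization 4 of the 10 were higher and 1 lower. Relative to the single treatments, 8 of the 10 were lower in SPI+E2 than in SPI and 5 lower than in E2, with 0 higher. Over all genes 17.1% and 15.5% passed these tests in either direction.

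Sensory neuron genes had 3 of 13 members higher and 0 lower (median 0.16). The nociceptor sodium channel gene Scn11a was 0.30 higher (adjusted p = 0.00279) and Avil, an actin regulator of sensory neurons, 0.29 higher (adjusted p = 0.00206). Of the 13 sensory neuron genes, 11 were lower and 1 higher in SPI+E2 than in SPI, and 10 lower and 0 higher than in E2. Against CAS, glia of nerve took another course. Among 15 Schwann cell and myelin genes 1 was higher and 4 were lower (median -0.023), the count of lower ones dropping to 2 without SPI+E2 pool 2, SPI+E2 pool 3, CAS pool 1 or CAS pool 3 and the higher call being lost without CAS pool 1. Pmp2, the lipid-binding protein of peripheral myelin, gave -0.87, -1.15 and -0.86 in the SPI+E2 pools, against -0.23, -0.16 and -0.21 in the CAS pools, with all SPI+E2 pools below all CAS pools (difference -0.76, SE 0.0932, adjusted p = 0.000346), and was lower still against SPI (-1.34) and E2 (-1.75). Mbp, myelin basic protein, differed by -0.27 (adjusted p = 0.0041). Set against the single treatments, these glia genes ran the same way as the neuron genes. Of the 15, 11 were lower in SPI+E2 than in SPI and 10 lower than in E2, with 0 higher. Over all genes 17.1% and 15.5% passed these tests in either direction. Central glia genes had 2 of 13 lower and 0 higher, with 1 lower without SPI+E2 pool 2, CAS pool 2 or CAS pool 3 and 4 lower after quantile normalization. Of melanocyte genes 1 of 7 was higher (Tyrp1, 0.34, adjusted p = 0.00297).

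As a mean over the list, the neuron genes stood between -0.20 and -0.15 in the SPI+E2 pools and between -0.39 and -0.36 in the CAS pools, and the catecholamine genes between 0.41 and 0.49 in SPI+E2 against -0.10 and -0.05 in CAS. Neither list overlapped between the groups, but this does not set them apart, since the means of many other lists did not overlap either. Skeletal muscle genes, with a median difference of 0.0093, had means of 0.032 to 0.069 in SPI+E2 and 0.00029 to 0.027 in CAS. Some lists did overlap, such as endothelial genes. The part that nerve tissue carried along with the bone had in these differences was not tested.

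**Figure D3:**
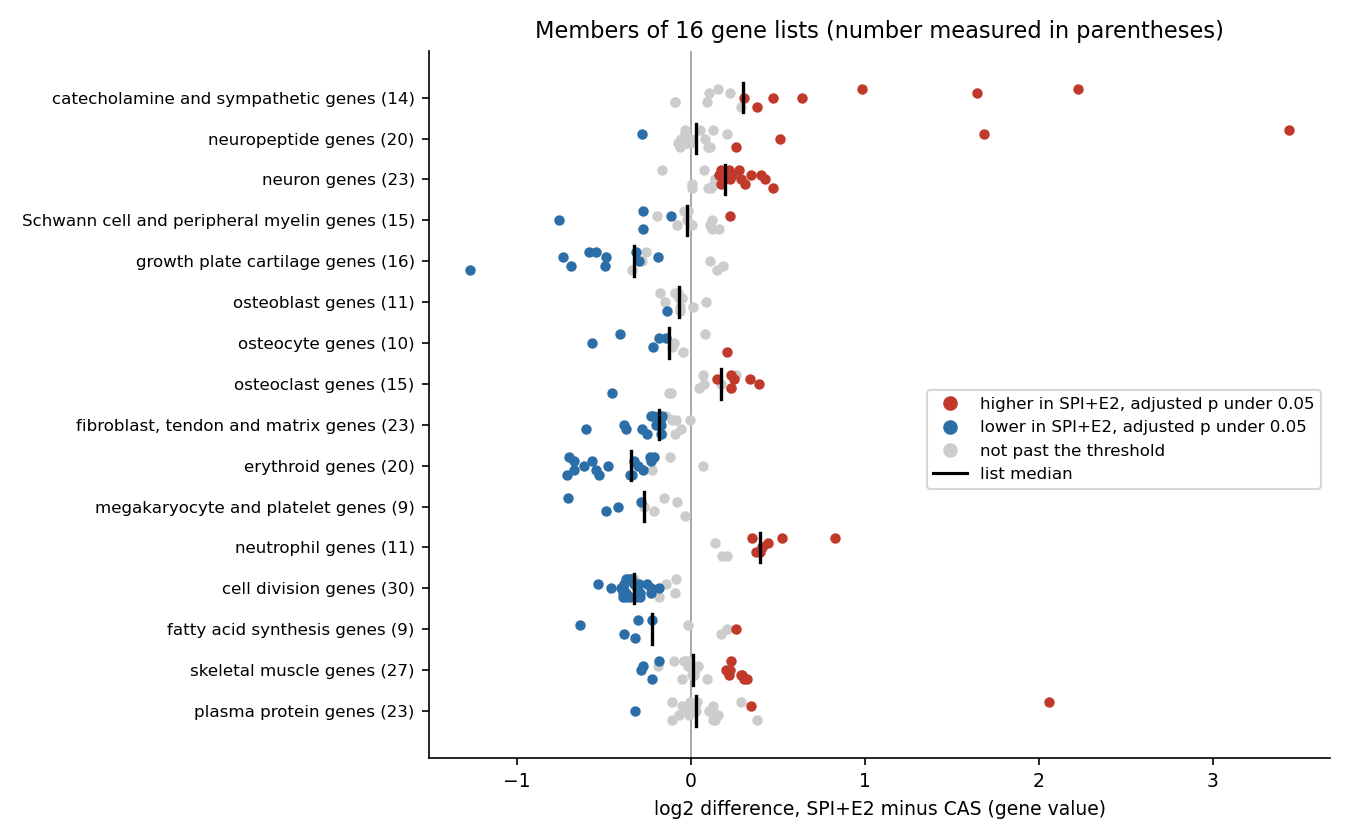
Difference between SPI+E2 and CAS, in log2 units, for each measured member of 16 gene lists; red points were higher and blue points lower at an adjusted p under 0.05, grey points did not pass, and a black bar marks the median. Cartilage, erythroid, cell division and matrix genes lie mostly to the left of 0, neutrophil and neuron genes mostly to the right, and osteoblast genes close to 0, 9 of the 11 below it.

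Genes of growth plate cartilage fell. Of 16 measured 10 were lower and 0 higher in SPI+E2 (median -0.33), and the members that fell were collagens, other matrix proteins and chondromodulin. Col10a1, the collagen of hypertrophic chondrocytes, was the gene that fell most among all tested. It gave -0.14, -0.16 and -0.028 in the SPI+E2 pools, against 1.19, 1.11 and 1.18 in the CAS pools, so that the groups were separated by over 1 log2 unit (difference -1.27, SE 0.0523, adjusted p = 1.22e-07).

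Collagen IX links the fibrils of cartilage. Col9a1 gave -0.055, -0.11 and -0.11 in the SPI+E2 pools, against 0.70, 0.64 and 0.59 in the CAS pools (difference -0.74, SE 0.0711, adjusted p = 7.68e-05) and Col9a3 gave -0.18, -0.084 and -0.14 in the SPI+E2 pools, against 0.52, 0.58 and 0.58 in the CAS pools (difference -0.69, SE 0.0642, adjusted p = 5.77e-05); neither gene overlapped. Col11a1, of the collagen that nucleates those fibrils, was -0.59 (SE 0.0752, adjusted p = 0.000449, mean of 3 probe sets). Others that fell were the link protein gene Hapln1 (-0.55), Comp (-0.49), Col2a1 (-0.32) and Acan, the aggrecan core protein (-0.30). Chad, Matn1 and Ucma, also cartilage genes, had values of 0.18, 0.15 and 0.11 and did not pass. Between 10 and 11 of the 16 were called lower without any single pool.

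Against the SPI diet alone 7 of the 16 were higher in SPI+E2 and 1 lower, and against E2 alone 0 were higher and 6 lower. Col10a1 was 0.72 above SPI (adjusted p = 2.91e-06) and -0.17 relative to E2 (adjusted p = 0.0451). The lower member against SPI was Cnmd, the gene of chondromodulin, an angiogenesis inhibitor of cartilage and tendon. It gave -0.68, -0.87 and -0.68 in the SPI+E2 pools, against -0.29, -0.21 and -0.26 in the CAS pools (-0.49, SE 0.0585, adjusted p = 0.000293), and was -0.96 relative to SPI and -1.20 relative to E2.

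Regulators of the growth plate were divided, with 2 of 11 higher and 2 lower (median -0.023). The higher count was 0 without SPI+E2 pool 3 or CAS pool 3 and 1 without any other single pool of the 2 groups. Panx3, a channel of prehypertrophic chondrocytes and osteoblasts, was -0.44 (SE 0.0485, adjusted p = 0.000173) and Sox6, a transcription factor that maintains chondrocytes, -0.39 (SE 0.0707, adjusted p = 0.00424). Pth1r, the receptor of parathyroid hormone, was 0.26 higher (adjusted p = 0.0183) but not without SPI+E2 pool 3, CAS pool 2 or CAS pool 3 (largest adjusted p = 0.0666). Tendon and connective tissue matrix followed the cartilage, with 16 of 23 genes lower and 0 higher (median -0.18). Tnmd, tenomodulin of tendon, gave -0.38, -0.40 and -0.32 in the SPI+E2 pools, against 0.23, 0.24 and 0.24 in the CAS pools, without overlap (difference -0.60, SE 0.0466, adjusted p = 1.7e-05), and Col14a1 (-0.38), Aspn (-0.37) and the small proteoglycan gene Dcn (-0.28) fell too. Of the 23, 19 were lower than in E2, and 4 were lower and 2 higher than in SPI.

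**Figure D4:**
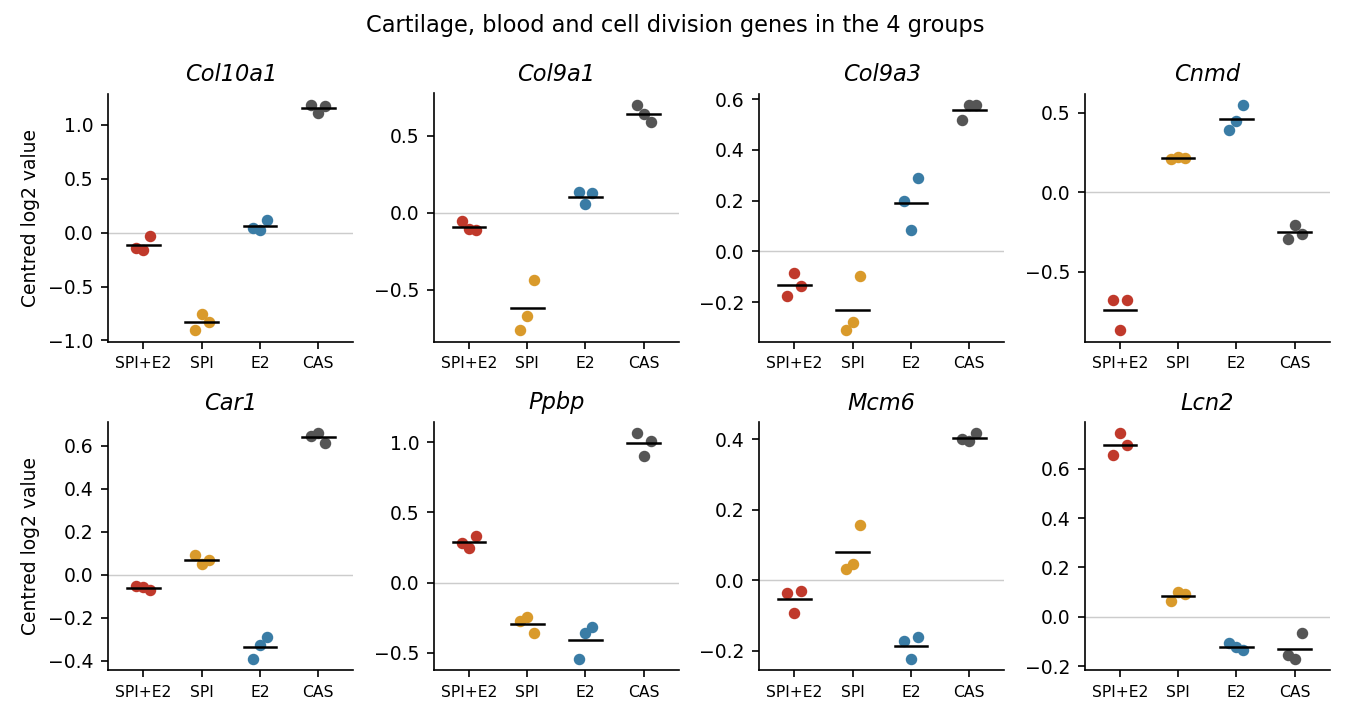
Centred log2 values of 8 genes in SPI+E2, SPI, E2 and CAS bone, with 1 point per pool and a bar at the group mean; the y axes differ between panels. CAS pools are the highest for Col10a1, Col9a1, Col9a3, Car1, Ppbp and Mcm6, and SPI+E2 pools are the highest for Lcn2 and the lowest for Cnmd.

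Of 11 genes of the osteoblast itself 1 passed, Sparc, a mineral-binding matrix protein (-0.14, SE 0.0345, adjusted p = 0.0211), and that call was lost without SPI+E2 pool 1, SPI+E2 pool 2, CAS pool 1 or CAS pool 3; without CAS pool 2 there were 3 lower, and after quantile normalization 4 (list median -0.067). Bmp2, an osteogenic growth factor the study names, gave 0.087, -0.0026 and 0.047 in the SPI+E2 pools, against 0.28, 0.094 and 0.29 in the CAS pools, and did not pass although its pools did not overlap (difference -0.18, SE 0.0652, adjusted p = 0.1). Osteocyte genes had 5 of 10 lower and 1 higher (median -0.13). Phex, the endopeptidase whose loss causes hypophosphataemic rickets, gave -0.47, -0.32 and -0.068 in the SPI+E2 pools, against 0.35, 0.35 and 0.15 in the CAS pools and fell by 0.57 (SE 0.106, adjusted p = 0.00481), Pdpn, a membrane protein of osteocyte dendrites, was -0.41 (adjusted p = 0.000557) and Mepe, a matrix phosphoglycoprotein, -0.22 (adjusted p = 0.00735). Those 3 genes kept their calls without any single pool, whereas the count of the list went to 3 lower without SPI+E2 pool 1 or any CAS pool, and the higher call was lost without CAS pool 1. Sost, the gene of the Wnt inhibitor sclerostin, did not pass (0.079, SE 0.103, adjusted p = 0.67), its SPI+E2 pools lying on both sides of the CAS pools.

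More osteoclast genes rose than fell, 6 of 15 being higher and 1 lower (median 0.17). The higher count was 4 without SPI+E2 pool 1, SPI+E2 pool 3, CAS pool 1 or CAS pool 3, and 5 without CAS pool 2. Ctsk, encoding cathepsin K, the collagen-degrading protease of the osteoclast, gave 0.24, 0.23 and 0.23 in the SPI+E2 pools, against -0.12, -0.11 and -0.10 in the CAS pools, narrow in both groups and without overlap (0.34, SE 0.034, adjusted p = 0.000101). Mmp9, a gelatinase of osteoclasts and neutrophils, gave 0.25, 0.27 and 0.30 in the SPI+E2 pools, against -0.11, -0.11 and -0.13 in the CAS pools (0.39, SE 0.0391, adjusted p = 9.55e-05). Itgb3, the beta subunit of the osteoclast's vitronectin receptor, was 0.25 higher (adjusted p = 0.00404). The member that fell was Car2, carbonic anhydrase of osteoclasts and also of red cell precursors (-0.45, SE 0.0356, adjusted p = 1.88e-05), which stood beside 17 lower erythroid genes. Proton pump and lysosome genes had 7 of 15 higher and 0 lower (median 0.09), among them Atp6v1a (0.31) and Atp6v1b2 (0.26), and the count was 4 without CAS pool 1 or CAS pool 2. Other sources of these RNAs, macrophages and neutrophils, had 2 of 10 and 8 of 11 genes higher, and their part in the osteoclast list was not tested. The macrophage count was 3 without SPI+E2 pool 3 and 1 without any other single pool of the 2 groups.

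Red cell genes fell, with 17 of 20 lower and 0 higher (median -0.34). Car1, an erythrocyte carbonic anhydrase, gave -0.051, -0.058 and -0.072 in the SPI+E2 pools, against 0.65, 0.66 and 0.62 in the CAS pools, with almost no spread in either group (difference -0.70, SE 0.0381, adjusted p = 1.13e-06). Slc4a1, the band 3 anion exchanger, gave -0.022, -0.076 and -0.079 in the SPI+E2 pools, against 0.61, 0.64 and 0.58 in the CAS pools (difference -0.67, SE 0.0406, adjusted p = 2.44e-06), and Rhag, the Rh-associated glycoprotein, gave -0.031, 0.024 and -0.11 in the SPI+E2 pools, against 0.64, 0.63 and 0.63 in the CAS pools (difference -0.67, SE 0.0512, adjusted p = 1.59e-05). In none of these did the groups overlap. Cpox, a haem synthesis enzyme, was -0.71 (SE 0.0971, adjusted p = 0.00068), and Dyrk3, a kinase of erythroid progenitors, -0.70 (SE 0.0976, adjusted p = 0.000831). Haemoglobin itself, Hbb, did not pass (-0.12, adjusted p = 0.0608). Relative to E2 alone 15 of the 20 genes were higher in SPI+E2, and relative to SPI 4 were lower.

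Platelet genes had 4 of 9 lower (median -0.27). Ppbp, a platelet chemokine, gave 0.28, 0.25 and 0.33 in the SPI+E2 pools, against 1.06, 0.91 and 1.01 in the CAS pools, separated by more than the spread of either group (difference -0.71, SE 0.0634, adjusted p = 4.28e-05), and Gp5, a subunit of the von Willebrand receptor, was -0.49 (adjusted p = 0.000585). Both SPI and E2 alone lay lower than the combination in Ppbp, which was 0.58 above SPI (adjusted p = 6.46e-05) and 0.69 above E2 (adjusted p = 3.16e-05).

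Neutrophil genes rose, with 8 of 11 higher and 0 lower (median 0.39). Lcn2, an iron-sequestering protein of neutrophil granules, gave 0.65, 0.74 and 0.69 in the SPI+E2 pools, against -0.15, -0.17 and -0.064 in the CAS pools, without overlap (0.83, SE 0.0411, adjusted p = 4.91e-07), and was above SPI by 0.61 and above E2 by 0.82. Defa7, a defensin, gave 0.80, 0.83 and 1.04 in the SPI+E2 pools, against 0.071, -0.33 and -0.10 in the CAS pools, with CAS pool 1 nearest to the treated pools (1.01, SE 0.102, adjusted p = 0.000101), and Pglyrp1, a peptidoglycan-binding protein of granules, was 0.53 higher (SE 0.0809, adjusted p = 0.00159). The defensin genes have near-identical copies, so probes may read more than 1 of them. Of macrophage genes, Cd68 rose by 0.46 (adjusted p = 0.000173), while the complement genes C1qa, C1qb and C1qc were at -0.06, 0.031 and -0.057 and did not pass. B cell genes had 3 of 6 lower and 1 higher, the higher call being lost without CAS pool 1, with Cd79b, a part of the B cell receptor, at -0.40 (adjusted p = 0.00253) and Blnk, its adaptor, at -0.31 (adjusted p = 0.000319). Fcrl2, an Fc receptor-like gene outside the lists, was among the largest falls and gave -0.72, -0.68 and -0.39 in the SPI+E2 pools, against 0.50, 0.31 and 0.28 in the CAS pools (difference -0.96, SE 0.0895, adjusted p = 5.91e-05).

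Genes of cell division fell alongside, 25 of 30 being lower and 0 higher (median -0.33). Ccna2, cyclin A2, gave -0.081, -0.18 and 0.13 in the SPI+E2 pools, against 0.58, 0.41 and 0.50 in the CAS pools (difference -0.54, SE 0.0935, adjusted p = 0.0033), and Mcm6, of the replicative helicase, gave -0.036, -0.094 and -0.032 in the SPI+E2 pools, against 0.40, 0.39 and 0.42 in the CAS pools (difference -0.46, SE 0.0429, adjusted p = 5.97e-05). CAS pools were the higher ones in both genes. Ccnb1 (-0.40) and the spindle gene Nusap1 (-0.39) differed by similar amounts, and between 19 and 24 of the 30 were called without any single pool. Against E2 alone 13 of the 30 were higher in SPI+E2, and against SPI 3 were lower. As a mean over the list the pools ran from -0.07 to -0.02 in SPI+E2 and from 0.25 to 0.29 in CAS, beside erythroid means of -0.05 to 0.0023 in SPI+E2 and 0.37 to 0.40 in CAS. What share of the dividing cells was of the red cell line was not tested.

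The insulin-like growth factor axis, which drives growth of long bones, held the second largest rise. Igfbp2, a binding protein of the factors, gave 1.12, 1.01 and 1.10 in the SPI+E2 pools, against -1.40, -1.40 and -1.31 in the CAS pools, a separation many times the spread (difference 2.45, SE 0.0541, 5.46-fold, adjusted p = 3.46e-10). It exceeded SPI by 1.63 (adjusted p = 2.59e-08) and E2 by 0.54 (adjusted p = 5.56e-05). Igf1, the growth factor, gave -0.15, -0.081 and -0.03 in the SPI+E2 pools, against 0.38, 0.30 and 0.38 in the CAS pools as the mean of 3 probe sets (difference -0.44, SE 0.0455, adjusted p = 0.00012), and the binding proteins Igfbp3 (-0.34, adjusted p = 0.000972) and Igfbp5 (-0.32, adjusted p = 0.000449) were lower too. The fall of Igf1 did not pass against either treatment alone, the difference being -0.10 relative to SPI (adjusted p = 0.16) and -0.067 relative to E2 (adjusted p = 0.357). In all, 2 of 14 genes of the axis were higher and 3 lower.

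Among 13 estrogen receptor and target genes 2 were higher and 1 lower (median 0.068), and the higher count was 1 whichever pool of the 2 groups was left out. Over all genes 5.8% were higher and 7.06% lower, and 1 of 13 lies near those shares. Greb1, a target of the estrogen receptor, gave 0.11, 0.18 and 0.35 in the SPI+E2 pools, against -0.54, -0.30 and -0.41 in the CAS pools (0.63, SE 0.0776, adjusted p = 0.000352), with its 2 probe sets at 0.16 and 1.10, and was not apart from E2 (-0.023, adjusted p = 0.874). The receptor genes Esr1 and Esr2 were at 0.13 and 0.082 and did not pass. BMP signalling had 1 of 21 higher, near the share over all genes, and 3 lower. The antagonist gene Grem1 gave 0.19, 0.15 and 0.29 in the SPI+E2 pools, against -0.34, -0.43 and -0.46 in the CAS pools, without overlap (0.62, SE 0.0638, adjusted p = 0.000116), while the ligands Bmp4 (-0.34, adjusted p = 0.00898) and Bmp3 (-0.29, adjusted p = 0.00321) were lower. Wnt pathway genes had 4 of 25 higher and 4 lower, with genes of the lipoprotein receptor-related family on both sides, Lrp4 at 0.36 (adjusted p = 0.000635) and Lrp6 at -0.33 (adjusted p = 0.00221). Those counts went to 2 higher and 2 lower without SPI+E2 pool 2, to 2 higher without CAS pool 2 and to 2 lower without CAS pool 3.

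Fat genes gave a mixed account. Ucp1, the uncoupling protein of brown fat, gave 0.046, 0.10 and 0.13 in the SPI+E2 pools, against 0.86, 0.89 and 0.81 in the CAS pools, without overlap (difference -0.76, SE 0.0508, adjusted p = 5.19e-06), and Cidea was -0.41 (adjusted p = 8.01e-05), but Ppargc1a, Dio2 and Prdm16 did not pass (-0.15, -0.053 and 0.0073). In white adipocyte genes 3 of 13 were lower and 1 higher, with 2 to 4 lower when 1 pool was left out and 0 higher without SPI+E2 pool 2, CAS pool 1 or CAS pool 3. Pck1, a glycerol-forming enzyme, was -0.34 (adjusted p = 0.00273) and the adipokine gene Adipoq was 0.13, which did not pass. G0s2, an inhibitor of fat breakdown outside the lists, gave -0.30, -0.26 and -0.14 in the SPI+E2 pools, against 0.55, 0.58 and 0.59 in the CAS pools (difference -0.81, SE 0.0537, adjusted p = 5.19e-06). Fatty acid synthesis was lower in 5 of 9 genes and higher in 1 (median -0.22): Thrsp, a lipogenic regulator, gave -0.13, -0.12 and -0.13 in the SPI+E2 pools, against 0.54, 0.49 and 0.50 in the CAS pools (difference -0.64, SE 0.0383, adjusted p = 2.44e-06), Elovl6 was -0.38 and Acly -0.32, whereas the desaturase gene Scd was 0.26 higher. Cholesterol synthesis had 3 of 15 lower (median -0.091), Idi1 at -0.39 and Cyp51 at -0.27 among them; there were 5 without SPI+E2 pool 3 and 7 after quantile normalization. Of these 15 genes 13 were lower in SPI+E2 than in SPI and 10 lower than in E2.

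Skeletal muscle, which clings to a dissected tibia, had 8 of 27 genes higher and 4 lower with a median of 0.0093. The higher ones included the slow-fibre troponin genes Tnni1 (0.32, adjusted p = 0.000257) and Tnnt1 (0.29, adjusted p = 0.00161), and Pvalb of fast fibres was lower (-0.28, adjusted p = 0.000382). Myosin, actin and creatine kinase genes of fast fibres, Myh4, Acta1 and Ckm, did not pass (-0.052, -0.013 and -0.038). Endothelial genes had 2 of 12 higher and 0 lower; 1 was higher without SPI+E2 pool 2, SPI+E2 pool 3, CAS pool 2 or CAS pool 3, and 1 was lower without SPI+E2 pool 1. Smooth muscle genes had 2 of 10 higher and 1 lower, and 2 lower without SPI+E2 pool 3.

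Several of the leading genes belong to none of these groups. Alb, the gene of serum albumin, gave 1.80, 1.86 and 1.83 in the SPI+E2 pools, against -0.21, -0.066 and -0.39 in the CAS pools, with its 2 probe sets at 1.31 and 2.80 (2.06, SE 0.0887, 4.16-fold, adjusted p = 1.43e-07). Of 23 plasma protein genes that the liver makes, Alb and the vitamin D-binding protein gene Gc (0.35) were higher, Rbp4 was lower (-0.32) and 20 did not pass, among them Apoa1 (0.027), Ttr (0.16) and Fga (0.013); the call of Gc was lost without SPI+E2 pool 1, SPI+E2 pool 3 or CAS pool 1. Eif2s3y, a Y-linked gene with a close copy on X, in animals labelled female, gave -0.37, -0.28 and -0.0071 in the SPI+E2 pools, against -1.82, -1.89 and -2.20 in the CAS pools (1.75, SE 0.154, adjusted p = 3.97e-05), in which the CAS pools are the ones that stand low among the 12, while the Y-linked Sry (0.089) and Uty (-0.014) did not pass. It was lower in SPI+E2 than in SPI (-0.70, adjusted p = 0.00844).

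Tm4sf4, a tetraspanin-related membrane protein gene, gave 0.81, 0.52 and 0.72 in the SPI+E2 pools, against -0.45, -0.18 and -0.15 in the CAS pools (0.95, SE 0.113, adjusted p = 0.000287). A pair of uncharacterised loci, LOC100910189 and LOC100910319, rose by 1.40 and 1.22 (SE 0.136 and 0.122, adjusted p = 8.04e-05 and 9.61e-05). Among the falls, Prss35, a serine protease-like gene, gave -0.51, -0.71 and -0.65 in the SPI+E2 pools, against 0.61, 0.51 and 0.66 in the CAS pools (difference -1.22, SE 0.139, adjusted p = 0.000226), and Fam111a, of a protease that acts in DNA replication, gave -0.39, -0.31 and -0.26 in the SPI+E2 pools, against 0.57, 0.52 and 0.48 in the CAS pools (difference -0.85, adjusted p = 1.13e-06). Ptgds, prostaglandin D synthase, gave -0.77, -0.81 and -0.77 in the SPI+E2 pools, against 0.052, 0.02 and 0.047 in the CAS pools (difference -0.82, SE 0.04, adjusted p = 4.61e-07) and was lower than SPI by 0.71 and lower than E2 by 1.69. Aqp3, the water and glycerol channel, gave 0.061, -0.067 and -0.16 in the SPI+E2 pools, against 0.90, 0.44 and 1.05 in the CAS pools, in which CAS pool 2 lay far below the other two CAS pools (difference -0.85, SE 0.135, adjusted p = 0.00185); Trim59, a ubiquitin ligase gene, was -0.69 (SE 0.125, adjusted p = 0.00392). Neither Aqp3 nor Trim59, Cpox or Dyrk3 passed against SPI or against E2.

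Of the 6 measured genes that the study names, Atf3, a stress-induced transcription factor, gave 0.12, 0.16 and 0.21 in the SPI+E2 pools, against -0.30, -0.14 and -0.38 in the CAS pools (0.44, SE 0.0668, adjusted p = 0.00154) and Cav1, the caveolin of caveolae, gave -0.11, -0.012 and -0.16 in the SPI+E2 pools, against 0.14, 0.18 and 0.29 in the CAS pools (difference -0.30, SE 0.0545, adjusted p = 0.00425), without overlap in either. Snap25, a protein of synaptic vesicle fusion, was 0.17 higher (adjusted p = 0.0358) and lost the call without SPI+E2 pool 1, SPI+E2 pool 3, CAS pool 2 or CAS pool 3 (largest adjusted p = 0.123). Bmp2, Calca and Sost did not pass. These genes were chosen by the study on the same samples.

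Smaller lists held single genes with clear separation. The major histocompatibility class II gene RT1-Bb gave 0.37, 0.25 and 0.29 in the SPI+E2 pools, against -0.25, -0.33 and -0.29 in the CAS pools (0.59, SE 0.0562, adjusted p = 6.91e-05) among 3 of 21 interferon and histocompatibility genes higher. In that list 0 were lower, but after quantile normalization 3 were higher and 3 lower. Clock genes had 4 of 15 higher and 1 lower, led by Dbp (0.45, adjusted p = 0.000278) and Nr1d1 (0.42, adjusted p = 0.000438), and the higher count was 2 without SPI+E2 pool 1, SPI+E2 pool 2 or any CAS pool. The lower count was 0 without CAS pool 3 and 2 after quantile normalization. The dioxin-responsive genes Cyp1a1 (0.51, adjusted p = 0.0126) and Cyp1b1 (0.34, adjusted p = 0.00219) rose. Of imprinted genes, Mest (-0.41, adjusted p = 0.000249) and Dlk1 (-0.36, adjusted p = 0.00482) fell and Meg3 rose (0.31, adjusted p = 0.000329). T and NK cell genes had 2 of 13 higher and 3 lower, and the 3 lower calls dropped to 1 without SPI+E2 pool 3 and to 0 without any other pool of the 2 groups. The higher count of that list was 1 without SPI+E2 pool 2, SPI+E2 pool 3, CAS pool 1 or CAS pool 3. Respiratory chain genes had 1 of 18 higher and 2 lower, the higher call being lost whichever pool of the 2 groups was left out, and hypoxia genes 1 of 12 lower. Of the remaining lists, immediate early genes had 2 of 18 higher and 3 lower, metalloproteinases and their inhibitors 1 of 18 higher and 2 lower, aryl hydrocarbon and oxidative stress genes 3 of 13 higher and 1 lower, hindlimb patterning genes 2 of 11 higher, potassium channel genes 1 of 18 higher, and caveolin and aquaporin genes 2 of 7 and 2 of 10 lower. Over all genes 5.8% were higher and 7.06% lower, and a single call among 12 to 18 genes lies near those shares. Most counts of these remaining lists depended on single pools. Leaving out any 1 pool of the 2 groups took the immediate early and hindlimb patterning genes to 1 higher and the aquaporin genes to 1 lower. The potassium channel call was lost without SPI+E2 pool 1, SPI+E2 pool 2, CAS pool 1 or CAS pool 2. Caveolin genes had 1 lower without SPI+E2 pool 1, SPI+E2 pool 2, CAS pool 1 or CAS pool 3, and 3 lower without SPI+E2 pool 3. Metalloproteinases had 1 lower without SPI+E2 pool 1, CAS pool 1 or CAS pool 2, and 2 higher without CAS pool 3. Aryl hydrocarbon and oxidative stress genes had 2 lower without SPI+E2 pool 3 and 3 lower after quantile normalization.

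**Figure D5:**
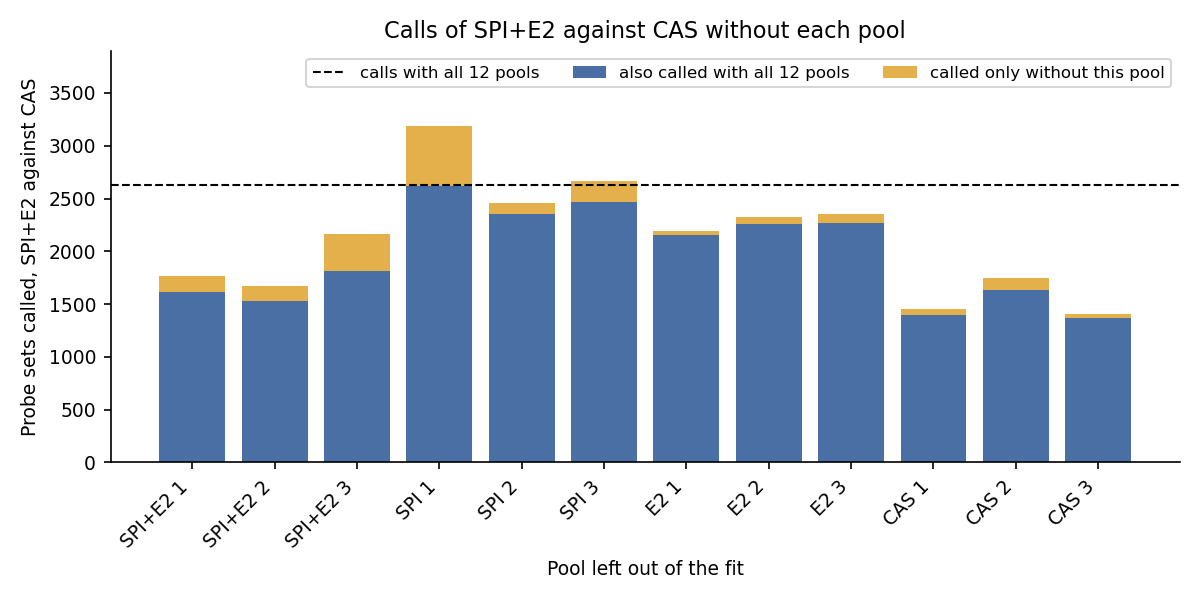
Number of probe sets called between SPI+E2 and CAS when the pool on the x axis was left out of the fit; blue is the part also called with all 12 pools, yellow the part called only without that pool, and the dashed line marks the 2631 calls with all pools. The 3 CAS pools and SPI+E2 pools 1 and 2 leave the fewest calls, and SPI pool 1 the most.

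The count of calls depended on single pools. Without SPI+E2 pool 1, 2 or 3 there were 1767, 1672 and 2160 probe sets called, and without CAS pool 1, 2 or 3 there were 1457, 1745 and 1408, against 2631 with all 12 pools. Of the 2631 calls, 1398 (53.1%), 1630 (62%) and 1364 (51.8%) were made again without CAS pool 1, 2 or 3, 59, 115 and 44 were made only then, and in 0 did the direction turn. Where the pools of the 2 groups do not overlap, leaving out a pool cannot turn the direction. Calls lost without CAS pool 1 had a median absolute difference of 0.254, and those kept 0.365. Calls that stood without any one of the 3 CAS pools numbered 1113 probe sets (42.3%), and 672 (25.5%) were lost in all 3 cases. Per gene, 878 of 1828 stood without any one CAS pool, 374 of the 824 higher (45.4%) and 504 of the 1004 lower (50.2%). Leaving out a pool also leaves fewer arrays to measure the spread, with 7 residual degrees of freedom in place of 8. The same 7 remained without an SPI or E2 pool, where 81.9% to 99.5% of the calls were kept. Leaving out a CAS or SPI+E2 pool also leaves 1 of the 2 compared means resting on 2 pools. The part of each in the lost calls was not tested.

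No CAS pool stood far from the other two: their median absolute deviation from the group was 0.0442, 0.047 and 0.0444. For SPI+E2 pools 1, 2 and 3 it was 0.0518, 0.0547 and 0.057. Across probe sets the centred values of SPI+E2 pools correlated at 0.279 to 0.393, against 0.481 to 0.542 between CAS pools. Such correlations also grow with the distance of a whole group from the other groups, so they do not measure how alike its pools are. When each CAS pool alone served as the control, 228, 172 and 229 probe sets reached 1.5-fold, and 126, 116 and 130 of these were shared with the 147 of the mean. The 30 leading genes were chosen on these same arrays as the largest called differences without overlap, which favours their keeping the call. All 30 were called in every one of the 12 fits with a pool left out. Over these fits and the other alternative fits together, their largest limma adjusted p was 0.021, for Trim59. With a pool left out, Vip ran from 3.34 to 3.59, Igfbp2 from 2.42 to 2.48, Col10a1 from -1.31 to -1.24 and Aqp3 from -1.03 to -0.73.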

How the data were processed

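RNA of tibiae was hybridised to 12 Affymetrix rat genome arrays, 3 pools in each of 4 groups, and samples were grouped by their GEO titles. GCOS and RMA are the tools given in the submitters' processing notes, with no version. The authors summarised the probe intensities with RMA and then normalised each chip and each gene in GeneSpring, and the deposited log2 values are centred on the median of each probe set over the 12 arrays. The centring removes the level of a gene, and how far a signal stood above background is not in such values. The log base was taken as 2, as RMA gives it; reading the values as natural logarithms is an alternative. The number of arrays limits the precision. All 12 columns of values belong to the samples and 0 were dropped.

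Of 31042 probe sets, 20826 had 1 symbol, 436 several and 9780 none in the annotation held here; of the 147 at 1.5-fold, 102 had 1 symbol. Gene values are means of the probe sets with that 1 symbol, 4525 of 14217 genes having more than 1. The gene table of RefSeq (GRCr8) matched 14167 genes and changed 0 symbols. With limma 3.58.1 (R 4.3.3, statmod 1.5.0), group means of all 4 groups were fitted and SPI+E2 was contrasted with CAS. Adjustment was by Benjamini-Hochberg, over the whole set of probe sets or of genes, with calls at 0.05. An exact permutation test of 3 pools against 3 cannot go below 0.1 and was not used.

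The members, the 49 gene lists (689 of 804 genes measured) and the tests were chosen with earlier results of these data known. Named genes were the 15 largest rises and 15 largest falls among called genes whose pools did not overlap, from each list at most 4 members, those of largest absolute difference, and the genes the study names, 205 in all; Runx2, one of those, had no probe set with its symbol alone and is not analysed here. Acan, Acta1, Adipoq, Apoa1, C1qa, C1qb, C1qc, Chad, Ckm, Cnmd, Col2a1, Comp, Dio2, Esr1, Esr2, Fga, Hand2, Hapln1, Hbb, Itgb3, Maoa, Matn1, Myh4, Phox2a, Prdm16, Pvalb, Scd, Slc6a2, Tnnt1, Ttr and Ucma are outside this rule and were chosen after their values were seen. Tried as alternatives were the pool number as a block, the 2 groups fitted alone, quantile normalization, median centring, robust variances, array weights, other summaries per gene, unadjusted p, the analysis of variance of the methods, and leaving out each pool.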

Additional observations from a re-analysis of the deposited data

Results flagged for a closer look

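For 25 of the 30 leading genes the change that E2 brought on the SPI diet differed from the change it brought on the casein diet, by the interaction term of the limma fit at an adjusted p under 0.05; over all genes 15.8% passed. The difference, E2's log2 change on SPI minus that on casein, had its largest positive values for Vip (3.28), Th (2.36), Ppbp (1.98), Col10a1 (1.82), Npy (1.81), Alb (1.59), Ucp1 (1.54) and Dbh (1.21). It was positive also for Col9a1 (1.07), Slc18a2 (0.986), Defa7 (0.964), Aqp3 (0.921), Car1 (0.846), Dyrk3 (0.749), Trim59 (0.646), Cpox (0.642), Lcn2 (0.604), Cyb561 (0.523), G0s2 (0.398) and Fam111a (0.214). It was negative for Eif2s3y (-2.75), Pmp2 (-2.34), Ptgds (-1.57), Chrna3 (-0.354) and Igfbp2 (-0.274). The interaction uses the same SPI+E2 and CAS pools that chose the leading genes.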

How the results depend on the processing

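Of 205 named genes 157 were called. These were refitted with a replicate block, with the 2 groups alone, after quantile normalization or median centring, with robust variances or array weights, and without each pool in turn, and the direction between SPI+E2 and CAS held for all 157 in each of these fits. Pools did not overlap for 1821 of the 1828 called genes. For such genes leaving out a pool cannot turn the direction, so that part was fixed in advance. In the same fits all 30 leading genes, chosen on these same arrays for large called differences, were called (largest limma adjusted p 0.021, Trim59). Leaving out each pool gave 1408 to 3183 called probe sets, 1070 to 2231 called genes and 147 to 189 probe sets at 1.5-fold. Leaving out a pool of SPI+E2 or CAS gave 11796 to 13557 probe sets without overlap, against 9473 with all pools. That count cannot fall when a pool is left out, so its rise is not a result. Of the 157 named calls, 18, 24 and 15 were lost without SPI+E2 pool 1, 2 or 3, and 26, 20 and 23 without CAS pool 1, 2 or 3. Against 2631 called probe sets, an unadjusted p under 0.05 gave 7284 and the analysis of variance with pairwise tests of the methods 5897. Against 147 at 1.5-fold, natural logarithms gave 721, and CAS pool 1 or CAS pool 3 alone as the control, an alternative chosen after seeing the data, gave 228 and 229. Fitting only the 2 groups gave 1522 genes and lost 13 named calls. Deviations of same-numbered SPI+E2 and CAS pools correlated at -0.0381, 0.0935 and 0.0573, and those of differently numbered pools at -0.136 to 0.083. With 3 pools a group these values cannot tell whether pools of 1 number shared a step, and the samples were not treated as paired. With the pool number as a replicate block 2484 probe sets and 1824 genes were called, and 4 named calls were lost. Not every pool correlated best with its own number.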
